A study of Mus musculus with 2 samples.

Results

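The IL-6 family cytokines and receptors described here were 8 of the 32285 genes in the count tables, taken by symbol. They were the ligands Il6, Lif and Osm, the receptor chains Il6ra, Lifr and Osmr, the shared signalling chain Il6st (gp130) and the feedback inhibitor Socs3. The study asked how a loss of lymphatic function affects arthritis of the temporomandibular joint (TMJ), the hinge of the jaw. Cells dissociated from the TMJ were profiled by droplet single-cell RNA-seq (scRNA-seq), which tags every captured transcript with a unique molecular identifier (UMI). There was 1 library from wild-type (WT) mice and 1 from Prox1 mutant mice, both C57BL/6, both 8 to 10 weeks old and both injected in the joint with complete Freund's adjuvant (CFA), an oily suspension of killed mycobacteria that provokes inflammation. The mutant mice are Prox1+/- heterozygotes per the study's methods, which name female mice. Prox1 is the transcription factor that sets and keeps lymphatic endothelial identity. An uninjected joint was not among the libraries, and the number of mice pooled in each is not given in the sources used here. With 1 library per genotype no test of genotype was possible, so every difference below compares 2 libraries, and every interval is a 95% interval for counting error only.

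Cytokines of the IL-6 family signal through receptors that share gp130. IL-6 binds the IL-6 receptor, which is on few cell types or is shed in soluble form. LIF signals through its receptor LIFR and oncostatin M, the product of Osm, through OSMR, each together with gp130. JAK kinases bound to these chains phosphorylate STAT3, which switches on Socs3, and the SOCS3 protein in turn blocks gp130. In an inflamed joint, macrophages, neutrophils, fibroblasts and vessel-wall cells are known sources or targets of these cytokines.

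In the GRCm38 annotation Osm (chr11:4236420-4241026) and Lif (chr11:4257557-4272514) lie 16530 bases apart on the same strand, and Osmr (chr15:6813577-6874969) and Lifr (chr15:7090614-7197489) are also on one chromosome. Il6 is at chr5:30013114-30019981, Il6ra at chr3:89864059-89913196, Il6st at chr13:112464070-112510086 and Socs3 at chr11:117966079-117970047. The 250 bases before each RefSeq start site (GRCm38.p6) were searched on both strands for a STAT site (TTCNNNGAA) and an AP-1 site (TGANTCA), since these are the textbook sites through which cytokines and stress switch the family on. RefSeq windows matched 7 of the 8 members in 8 windows, Lifr having a pair of starts and Osm having no entry. The letters of a STAT site were found in 7.02% of all 32851 windows and those of an AP-1 site in 6.75%. Among the members they were found in 3 windows, shown as 30 bases each, 5′ to 3′ on the gene's strand, with the match in capitals.
Il6, AP-1 site 249 bases before the start, chr5:30012864-30012893, plus strand: cTGAGTCActtttaaagaaaaaaaagaaga
Lif, AP-1 site 228 bases before the start, chr11:4257329-4257358, plus strand: ccagtcagctgTGACTCAggccatagtggc
Socs3, STAT site 154 bases before the start, chr11:117969501-117969530, minus strand: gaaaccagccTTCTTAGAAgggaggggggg
The Il6 and Lif stretches overlapped no annotated feature, and the Socs3 stretch lay within the annotated Socs3 gene outside its exons. A match in letters is a description of these windows and not a measure of binding.

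Of 5709 WT and 7846 mutant barcodes, 4352 and 5757 passed the study's filter and held 48366846 and 54330221 UMIs, with medians of 6997 and 4848 UMIs per cell. The cells formed 41 clusters, of which 33 were named from marker genes, and each name below stands for a cluster that is like the named cell type. They made up 17 lineages, 14 of which had at least 20 cells in each library, while mast cells and basophils, adipocytes and epithelial cells had fewer in 1 library or both, and 618 WT and 1127 mutant cells stayed unnamed. No cluster could be named lymphatic endothelial, so the cells the mutation is meant to act on were not described. Prox1 had 563 UMIs in the WT library and 315 in the mutant library, 11.6 and 5.80 UMIs per 1000000 UMIs (CPM), and 43.1 and 26.5 CPM among endothelial cells. The libraries shared 10 barcodes, 4 of them kept, and 6 named clusters had over 90% of their cells from 1 library. Red-cell transcripts were more abundant in several lineages of the mutant library: the 8 erythroid markers summed to 118 CPM in WT and 66774 CPM in mutant chondrocytes, 196 and 12214 CPM in myeloid progenitors, and 2131 and 9146 CPM in endothelial cells. The sum was lower in the mutant library in Schwann cells (2195 and 1126 CPM) and in T and NK cells (10716 and 8479 CPM). Their part in any difference below was not tested.

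Over all kept cells Socs3 was the most abundant member, with 10439 UMIs in the WT library and 8231 in the mutant library (216 and 151 CPM), and Lif the least, with 124 and 435 UMIs (2.56 and 8.01 CPM). Lif was higher in the mutant library by a log2 ratio, mutant over WT, of 1.64 (interval 1.35 to 1.94). It was the only member of the 8 past 2-fold with at least 20 UMIs, the rule used for a call throughout. No member was lower by that rule. Over all 18619 genes with at least 20 UMIs, 6.06% were higher and 6.51% lower. Il6 (42.9 and 32.4 CPM), Il6st (142 and 102 CPM), Osmr (98.1 and 65.7 CPM) and Socs3 had lower values in the mutant library, with log2 ratios of -0.40, -0.47, -0.58 and -0.51. Il6ra (40.9 and 49.9 CPM) and Osm (75.7 and 87.5 CPM) had higher ones, 0.29 and 0.21, and Lifr was close to equal at 91.9 and 87.1 CPM. These sums mix cell types that took different shares of each library: endothelial cells were 21.7% of WT and 8.67% of mutant cells, and erythroid cells 7.24% and 22.4%. A CPM is a share of the UMIs of the cells named, and it counts transcript ends, so it is not divided by gene length.

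Osm, Lif and Il6ra were high in myeloid cells, whereas Il6st and Osmr were high in vessels and connective tissue. Lifr was high in tissue cells and in dendritic cells, and Il6 and Socs3 were carried by cells of both kinds. Over the 28 profiles formed by 14 lineages in 2 libraries, the log2 CPM of Osm had Pearson correlations of 0.66 with Il6ra and 0.63 with Lif, but -0.67 with Il6st and -0.58 with Osmr. Il6st had 0.64 with Osmr, 0.59 with Lifr and 0.61 with Socs3. Il6 had none above 0.47, which was with Il6ra. Profiles of one library share its background RNA and the clusters were made from the same counts, so these correlations are descriptions.

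**Figure D1:**
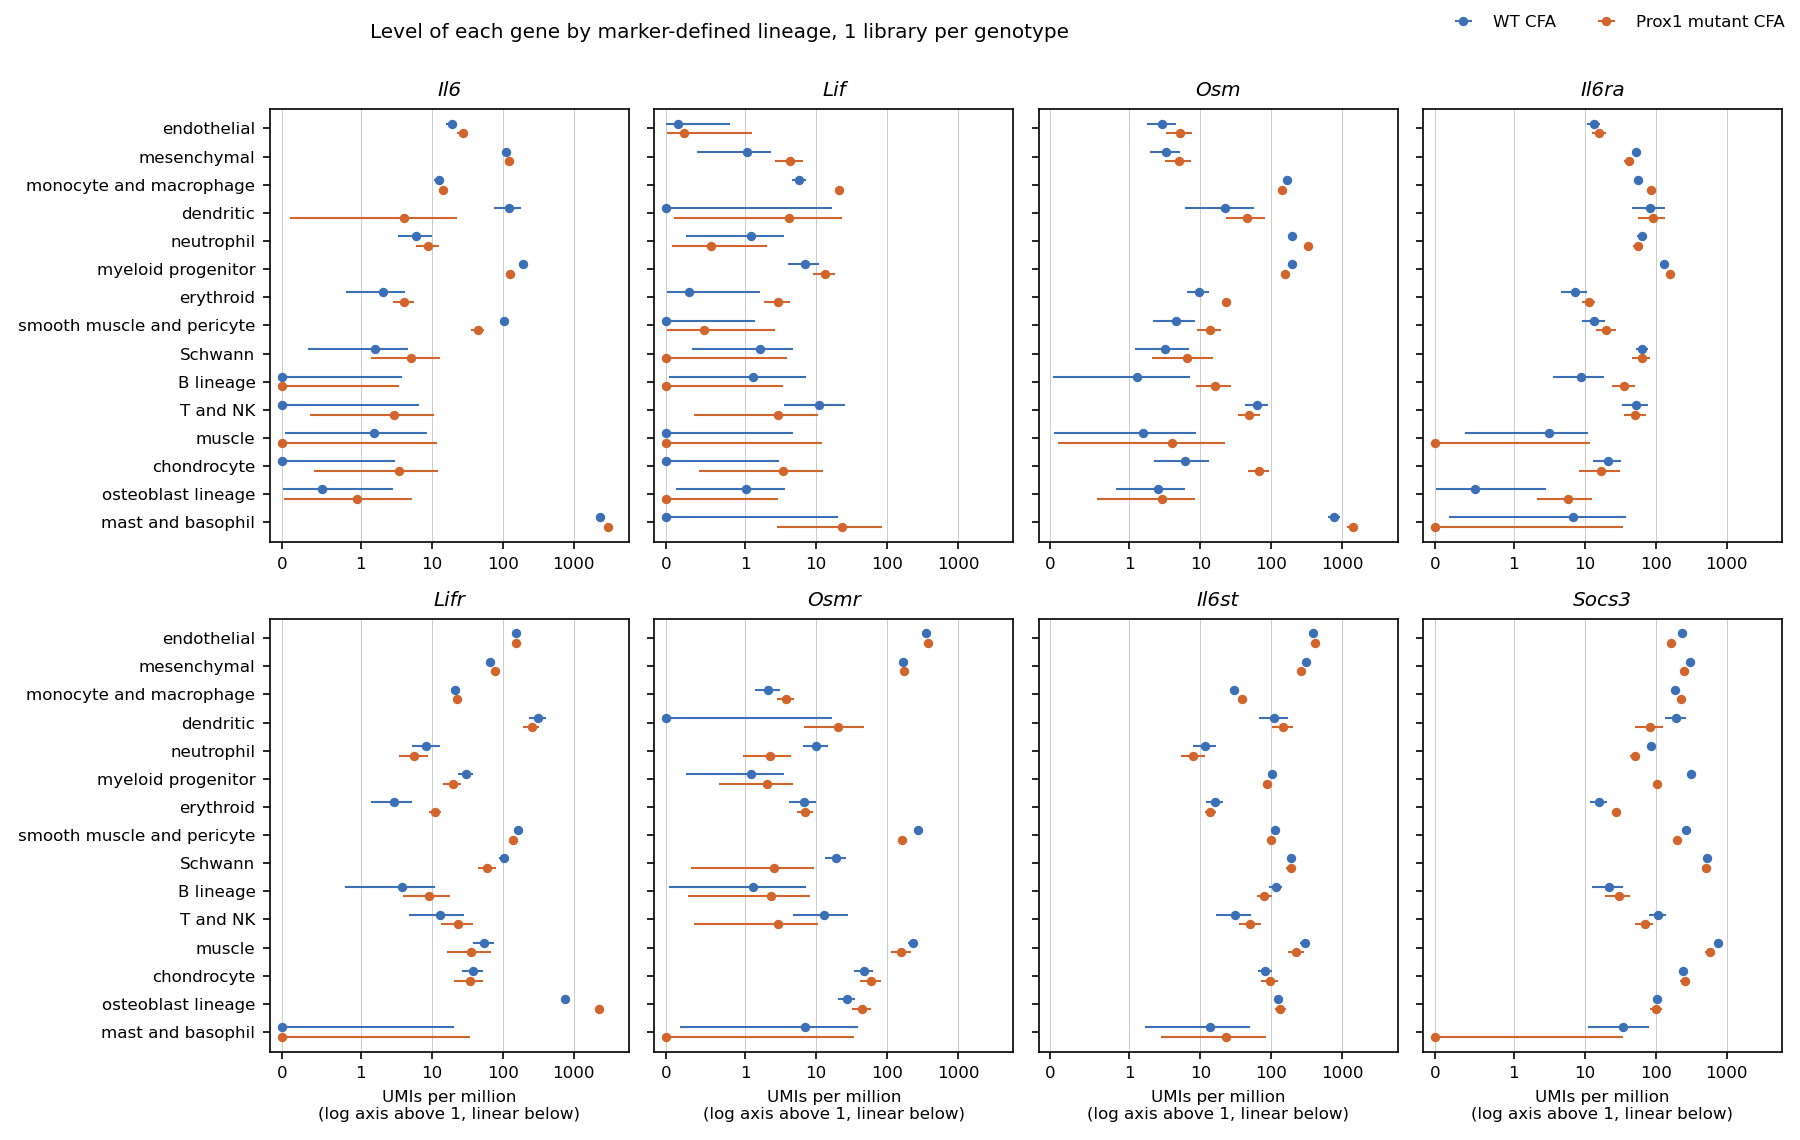
Level of each of the 8 members in each lineage, in CPM on an axis that is logarithmic above 1 and linear below, with 1 point for the WT library and 1 for the Prox1 mutant library and bars for the 95% counting interval. Il6 and Osm were highest in mast cells and basophils, Osmr and Il6st in endothelial cells, Lifr in the osteoblast lineage and Socs3 in muscle cells in both libraries.

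Of the 112 pairs of a member and a lineage, 84 had at least 20 UMIs. Of these 9 (10.7%) were higher in the mutant library and 6 (7.14%) lower, against a background of 8.00% higher and 5.06% lower over all 135399 gene and lineage pairs. The members' shares were close to the background. The 9 higher pairs were Lif in macrophages, mesenchymal and erythroid cells, Osm in erythroid cells, chondrocytes and smooth muscle and pericytes, Lifr in erythroid cells and the osteoblast lineage, and Il6ra in the B lineage. The 6 lower pairs were Il6 in smooth muscle and pericytes and in dendritic cells, Osmr in neutrophils and Schwann cells, and Socs3 in myeloid progenitors and dendritic cells. Several rested on a single droplet or on low counts, which are given with each member.

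**Figure D2:**
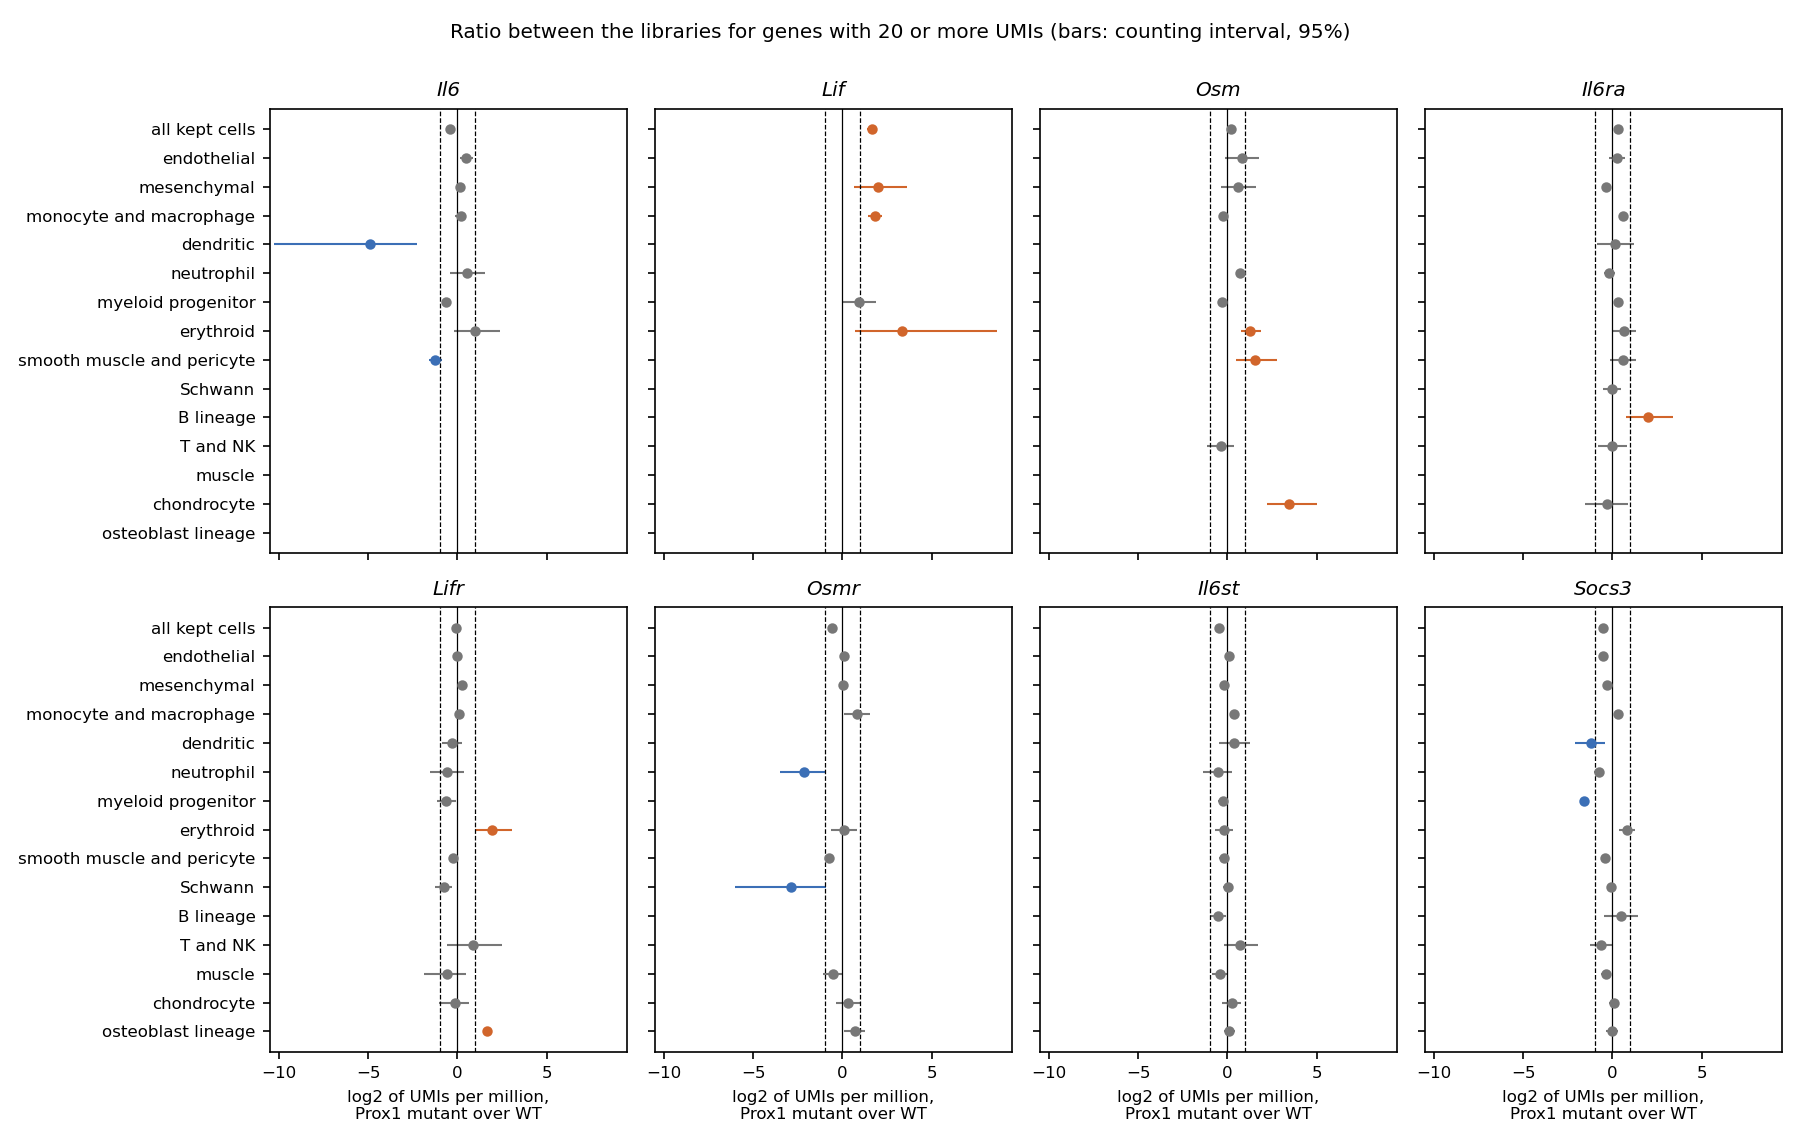
Log2 ratio of CPM, Prox1 mutant over WT, for each member and lineage with at least 20 UMIs, with bars for the 95% counting interval and dashed lines at 2-fold. Coloured points mark the 9 pairs higher and the 6 pairs lower by the 2-fold rule, and the row of all kept cells holds the call on Lif.

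Il6 encodes interleukin-6, the founding cytokine of the family. By level it was highest in a cluster of mast cells and basophils, which held only 12 WT and 17 mutant cells yet 340 and 259 UMIs, 16.4% and 14.7% of all Il6 in the libraries. Its level there was 2342 and 2994 CPM. All 12 WT droplets and 15 of the 17 mutant droplets held Il6, with medians of 20.5 and 9 UMIs and maxima of 120 and 36. The signal therefore came from nearly every droplet of the cluster, although the WT maximum was 1 droplet far above its median.

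Among the 14 lineages, myeloid progenitors had the highest Il6 level in both libraries, with 480 UMIs (196 CPM) in WT and 308 UMIs (127 CPM) in mutant. Leaving aside WT dendritic cells, mesenchymal cells followed with 609 and 564 UMIs (110 and 121 CPM), and their interval overlapped that of the progenitors in the mutant library. Nearly all of it was in Pi16-positive fibroblasts, the adventitial type of fibroblast, with 589 and 551 UMIs (107 and 127 CPM). In mesenchymal cells 90 WT and 76 mutant droplets held Il6, and 13 and 10 of them held 50% of the UMIs, so that expression was concentrated in few cells. The share of cells with a UMI, each cell thinned to 2000 UMIs, was 11.5% and 13.98% in mesenchymal cells, 24.4% and 23.1% without thinning, against 0.871% in mutant erythroid cells, which should lack it.

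In smooth muscle and pericytes Il6 was lower in the mutant library, at 231 WT and 93 mutant UMIs (105 and 44.7 CPM, log2 ratio -1.23, interval -1.59 to -0.87). Pericytes, which wrap small vessels, had 109 and 19 UMIs (203 and 52.3 CPM, log2 ratio -1.96). Smooth muscle cells had 122 and 70 UMIs (73.8 and 51.2 CPM, log2 ratio -0.53) and did not pass 2-fold. Different clusters held most of this lineage, cluster 17 with 71.0% of its WT cells and cluster 22 with 55.8% of its mutant cells. All 8 erythroid markers were over 2-fold higher in the mutant cells of the lineage, 5700 against 35059 CPM summed, and their median depth was 2522 UMIs against 8978.

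Il6 in macrophages differed in opposite directions by subtype. In inflammatory macrophages it was higher in the mutant library, 10.6 CPM against 22.1 CPM, with 96 WT and 179 mutant UMIs (log2 ratio 1.06, interval 0.69 to 1.43). In resident-type macrophages, the long-lived tissue macrophages, it was lower, 18.0 CPM against 4.41 CPM, with 66 and 26 UMIs (log2 ratio -2.03, interval -2.74 to -1.35). The sum over the lineage, 12.8 and 14.6 CPM, showed neither. Among the inflammatory clusters, cluster 4 had 94 and 105 UMIs (log2 ratio 0.50), while cluster 14, with 12 WT and 268 mutant cells, had 2 and 64 UMIs (13.8 and 79.7 CPM). The higher Il6 of the subtype thus lay largely in a cluster that came almost wholly from the mutant library, and without that cluster the log2 ratio was 0.57. Of the 64 mutant UMIs of cluster 14, held by 18 droplets, 21 sat in 1 droplet. In cluster 4, 1 WT droplet held 25 of the 94 UMIs and 1 mutant droplet 24 of the 105. The difference in resident-type macrophages was -0.34 under log-normalisation. Their Il6 was concentrated, with 17 of the 66 WT UMIs in 1 droplet and 10 of the 26 mutant UMIs in 1 droplet. In all, 19 WT and 15 mutant droplets of these macrophages held Il6. In endothelial cells Il6 was 19.3 and 27.4 CPM, and 30 of the 51 mutant UMIs of arterial cells sat in 1 droplet. All 22 WT UMIs in dendritic cells also sat in 1 droplet, so that pair was a call on 1 droplet. Cells of the B lineage held no Il6 UMI in either library, which allows levels of up to 3.86 CPM in WT and 3.45 CPM in mutant cells at a floor of 3 UMIs.

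Lif encodes leukaemia inhibitory factor, a cytokine known for acting on neurons, bone cells and stem cells. It was rare everywhere and was carried by macrophages, which held 74 of 124 WT UMIs (59.7%) and 291 of 435 mutant UMIs (66.9%). Their level was 5.83 CPM in WT cells against 20.8 CPM in mutant cells (log2 ratio 1.84, interval 1.46 to 2.22). In WT this could not be told apart from T and NK cells (10.9 CPM) and myeloid progenitors (6.94 CPM), whose intervals overlapped it.

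Within the macrophage lineage the difference lay in inflammatory macrophages, where Lif had 47 WT and 266 mutant UMIs (5.21 and 32.9 CPM, log2 ratio 2.66, interval 2.21 to 3.14). Resident-type macrophages had 27 and 25 UMIs (7.35 and 4.24 CPM, log2 ratio -0.79, interval -1.64 to 0.05). Within cluster 4, the largest cluster of inflammatory macrophages in WT, 265 WT cells held 46 UMIs and 216 mutant cells 245 UMIs (5.38 and 36.3 CPM, log2 ratio 2.75). Cluster 4 took its name from Mmp12, Spp1 and Inhba of the inflammatory macrophage list among its 10 leading genes, and it raised only Csf1r and Cd68 of the 10 macrophage markers, while the osteoclast marker Dcstamp also led it. Under 7 other clusterings most of its cells were named macrophage in 1, osteoclast in 3 and left unnamed in 3. Over 13 alternatives of the processing the Lif ratio of the whole macrophage lineage ranged from -0.28 to 2.92. That of inflammatory macrophages was between 2.24 and 2.92 over the 9 alternatives where a cluster had that name. Most of those 9 kept the main clustering, so they say little on other clusterings. The ratio of all cells, which does not depend on cluster names, was between 1.60 and 1.86 over 9 alternatives. Of the cells of cluster 4, 25 WT and 50 mutant droplets held Lif, with maxima of 7 and 31 UMIs. Both the number of droplets and the UMIs per droplet were thus higher, and 50% of the 291 macrophage UMIs of the mutant library were in 11 droplets. The macrophage cluster with the most cells was cluster 4 in WT (45.8%) and cluster 3 in the mutant library (36.6%). Scaling by total UMIs also set the median gene of mutant cells above WT, by 0.25 log2 units in macrophages, 0.29 in chondrocytes, 0.16 in erythroid cells and 0.11 in myeloid progenitors, and ratios relative to the median gene are lower by those amounts.

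**Figure D3:**
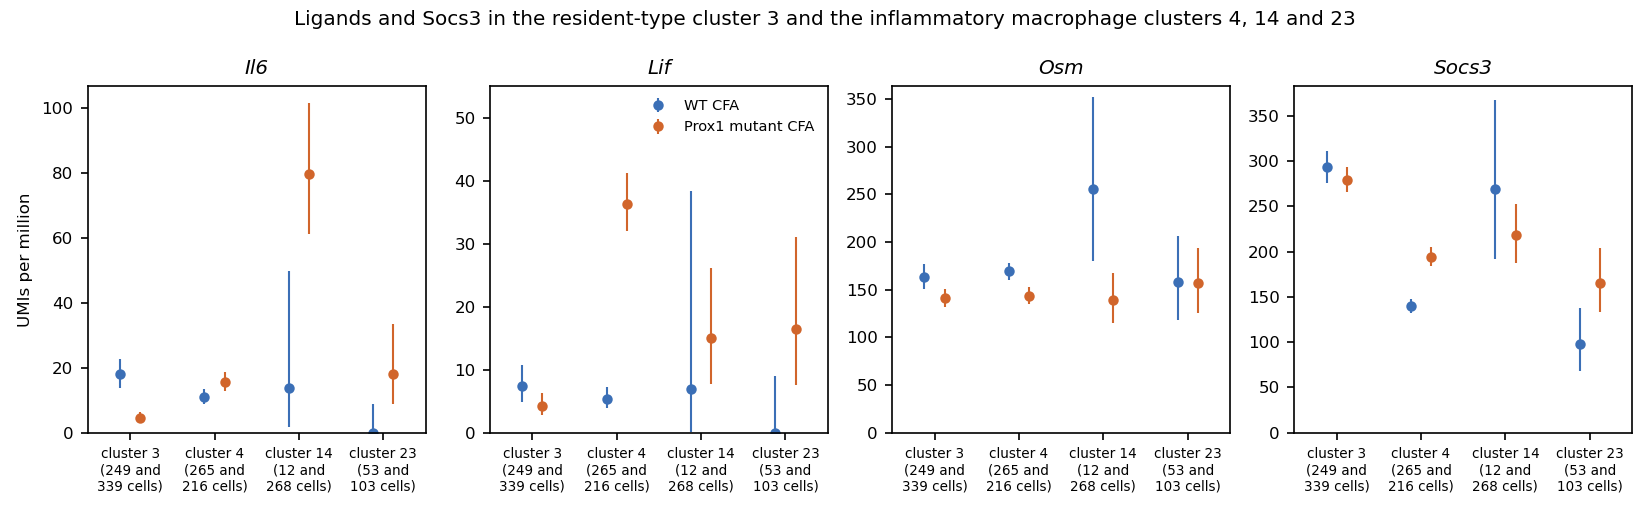
Levels of the ligands Il6, Lif and Osm and of Socs3 in CPM in each macrophage cluster, for the WT and the Prox1 mutant library, with 95% counting intervals. Lif in cluster 4 was 5.38 CPM in WT cells against 36.3 CPM in mutant cells, while Osm was at like levels in inflammatory and resident-type macrophages.

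Lif was called in mesenchymal cells on 6 WT and 20 mutant UMIs and in erythroid cells on 1 and 25 UMIs. In the mesenchymal cells the 10 macrophage markers summed to 75.6 and 148 CPM, 5 of them over 2-fold higher, and the 8 neutrophil markers to 150 and 1026 CPM, and their part in the Lif values was not tested. The erythroid log2 ratio of 3.32 had an interval from 0.70 to 8.68 and the 25 UMIs were spread over 21 droplets, with at most 3 in any one. Myeloid progenitors had 17 and 32 UMIs (6.94 and 13.2 CPM), a log2 ratio of 0.93. Unnamed cells had 11 and 56 Lif UMIs (2.01 and 6.76 CPM, log2 ratio 1.75, interval 0.80 to 2.83), past 2-fold.

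Osm encodes oncostatin M, a cytokine of myeloid cells. Neutrophils had the highest Osm level of the 14 lineages in both libraries, 488 WT and 1145 mutant UMIs (196 and 325 CPM, log2 ratio 0.73, interval 0.58 to 0.89). In WT their interval overlapped that of myeloid progenitors at 194 CPM, while in the mutant library neutrophils stood above progenitors at 157 CPM. Mature neutrophils had 181 and 584 UMIs (254 and 547 CPM, log2 ratio 1.11, interval 0.86 to 1.35), past 2-fold, though the ratio was 0.75 with the stricter cell filter of 1000 genes. Immature neutrophils had 307 and 561 UMIs (173 and 228 CPM, log2 ratio 0.40). Thinned to 2000 UMIs, 31.5% of WT and 41.8% of mutant neutrophils held an Osm UMI, 45.2% and 66.8% without thinning, against 1.65% and 7.16% of erythroid cells.

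Macrophages held the most Osm UMIs, 2134 in WT and 1999 in the mutant library, 58.3% and 42.0% of all Osm. Of these, 1445 and 968 were in cluster 4, which was mostly named osteoclast or left unnamed under other clusterings. Their level was 168 and 143 CPM (log2 ratio -0.23), and inflammatory macrophages (170 and 144 CPM) and resident-type macrophages (163 and 141 CPM) had much the same values. Mast cells and basophils had 112 and 121 UMIs, 771 and 1399 CPM, in 9 of 12 and 12 of 17 droplets. Endothelial and mesenchymal cells had at most 5.13 CPM. In 3 other lineages Osm was called higher. Chondrocytes had 6 and 39 UMIs (6.02 and 66.6 CPM, log2 ratio 3.47), smooth muscle and pericytes 10 and 28, and erythroid cells 33 and 202 (9.56 and 23.3 CPM, log2 ratio 1.29). Of the 28 mutant UMIs in smooth muscle and pericytes, 23 were in cluster 22, which held most of the lineage's mutant cells. The cells named smooth muscle had 8 WT and 4 mutant Osm UMIs and those named pericytes 0 and 1. In chondrocytes the 8 neutrophil markers summed to 5447 CPM in WT and 9469 CPM in mutant cells and the 10 macrophage markers to 17.1 and 453 CPM, beside the red-cell markers given above, and the median depth was 31328 and 3197 UMIs. In smooth muscle and pericytes the 10 macrophage markers summed to 55.3 and 243 CPM, 7 of them over 2-fold higher, and the 8 neutrophil markers to 2420 and 4595 CPM. What part these had in the Osm values was not tested.

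**Figure D4:**
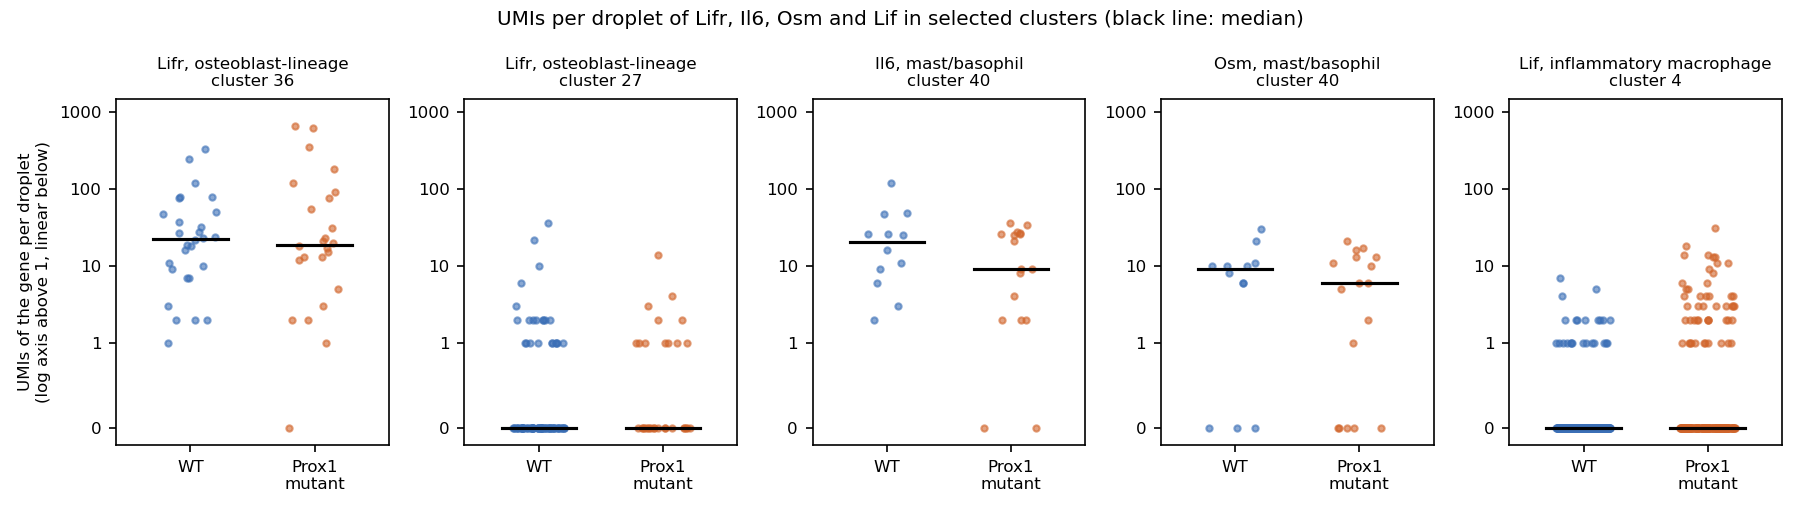
UMIs per droplet of Lifr, Il6, Osm and Lif in selected clusters, 1 point per droplet with a line at the median, for the WT and the Prox1 mutant library, on an axis that is logarithmic above 1 and linear below. Lifr in cluster 36 was in nearly every droplet but ranged up to 338 UMIs in WT and 675 UMIs in the mutant library, while most cells of cluster 4 held no Lif.

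Il6ra encodes the chain that binds IL-6. Among the 14 lineages it was highest in myeloid progenitors, 316 WT and 388 mutant UMIs (129 and 160 CPM, log2 ratio 0.31). Macrophages led instead in both libraries with the highest doublet scores removed or with 30 principal components, and in WT without integration. Resident-type macrophages had 410 and 763 UMIs (112 and 129 CPM, log2 ratio 0.21) and mature neutrophils 89 and 126 UMIs (125 and 118 CPM). Inflammatory macrophages were lower, at 34.1 and 53.6 CPM (log2 ratio 0.65, interval 0.44 to 0.87), and immature neutrophils had 38.8 and 29.3 CPM. So within both macrophages and neutrophils the level differed between the subtypes in both libraries.

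Outside blood cells Il6ra was found in mesenchymal cells (53.1 and 42.0 CPM) and in Schwann cells (64.4 and 63.3 CPM), the glia of peripheral nerve. All Schwann cell UMIs, 120 and 49, were in the myelinating cells (99.4 and 72.6 CPM). Endothelial cells had 13.4 and 16.1 CPM and smooth muscle and pericytes 13.6 and 20.2 CPM. Of the endothelial subtypes, capillary cells had 12 and 17 UMIs (5.07 and 11.6 CPM, log2 ratio 1.19, interval 0.04 to 2.39), past 2-fold. Among the 14 lineages the only call was in the B lineage, with 7 and 31 UMIs (9.01 and 35.7 CPM, log2 ratio 1.99, interval 0.78 to 3.41), of which 9 of 31 sat in 1 droplet. In that lineage the 8 erythroid markers summed to 333 and 18527 CPM and the 8 neutrophil markers to 340 and 2202 CPM.

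Lifr encodes the LIF receptor chain, which also takes part in other receptors of the family. The osteoblast lineage had 1445 WT and 2405 mutant UMIs (742 and 2305 CPM, log2 ratio 1.63, interval 1.54 to 1.73), above every other lineage in both libraries. This lineage joined 2 clusters with unlike levels. Cluster 36, led by the bone matrix genes Bglap and Dmp1, with 28 WT and 24 mutant cells, held 1342 and 2373 of the UMIs (2397 and 4357 CPM, log2 ratio 0.86). Cluster 27, with 90 and 31 cells, held 103 and 32 (74.2 and 64.1 CPM, log2 ratio -0.21). Within each cluster Lifr was under 2-fold apart, and cluster 36 made up a larger share of the lineage in the mutant library. In cluster 36 Lifr was in 28 of 28 and 23 of 24 droplets, with medians of 22.5 and 19 UMIs, but 3 WT and 2 mutant droplets held 50% of all UMIs, the largest with 338 and 675. Lifr was itself among the leading genes of this cluster, so its level there also helped to form the cluster. At a resolution of 0.5 its cells were left unnamed and the lineage ratio was -0.21.

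Elsewhere Lifr was 314 and 255 CPM in dendritic cells (57 and 62 UMIs), 154 and 152 CPM in endothelial cells (log2 ratio -0.02, interval -0.16 to 0.12) and 166 and 140 CPM in smooth muscle and pericytes. The intervals of endothelial cells and of smooth muscle and pericytes overlapped in both libraries. Arterial cells had 188 and 184 CPM, venous cells 149 and 144 CPM and capillary cells 133 and 132 CPM. Intervals of venous and capillary cells overlapped, as did those of arterial and venous cells in the mutant library. Schwann cells had 103 and 60.7 CPM (log2 ratio -0.76). The non-myelinating ones had 135 and 7 UMIs (206 and 70.3 CPM, log2 ratio -1.55, interval -2.89 to -0.47). They were 52 WT and only 14 mutant cells, and the mutant number is under the minimum of 20 cells per library used for lineages. Erythroid cells were called on 10 and 97 UMIs (2.90 and 11.2 CPM), but the largest share of them was in cluster 9 in WT (48.9%) and in cluster 1 in the mutant library (49.1%), and without the clusters dominated by 1 library the log2 ratio was 0.35 for Lifr and -0.30 for Osm. Unnamed cells held 505 and 266 Lifr UMIs (92.3 and 32.1 CPM, log2 ratio -1.52), most of them in cluster 15 with 395 and 104 UMIs (169 and 71.1 CPM).

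Osmr encodes the oncostatin M receptor chain. It was highest in endothelial cells, 2432 WT and 1681 mutant UMIs (355 and 375 CPM, log2 ratio 0.08, interval -0.01 to 0.17), above all other lineages in both libraries. Along the vessel tree arterial cells had 551 and 665 CPM, capillary cells 363 and 340 CPM and venous cells 221 and 185 CPM. The order was the same in both libraries with 95% intervals that did not overlap. Around the vessels pericytes had 225 and 101 UMIs (419 and 278 CPM, log2 ratio -0.59) and smooth muscle cells 371 and 215 UMIs (224 and 157 CPM, log2 ratio -0.51).

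Mesenchymal cells had 169 and 171 CPM (log2 ratio 0.01, interval -0.13 to 0.15). Muscle satellite cells, the stem cells of muscle, had 233 and 160 CPM, with 149 and 40 UMIs. Macrophages, which held the most Osm UMIs with cluster 4 counted among them, had only 27 and 52 Osmr UMIs (2.13 and 3.72 CPM). In Schwann cells Osmr had 36 and 2 UMIs (19.3 and 2.58 CPM, log2 ratio -2.90, interval -6.00 to -0.95), with the WT UMIs in 17 droplets. In neutrophils it had 25 and 8 UMIs, of which 22 sat in 1 WT droplet, so that call rests on 1 droplet and its sign turned under 6 alternatives.

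Il6st encodes gp130. It was the most evenly spread chain, present in all 14 lineages and highest in endothelial cells, 2623 WT and 1828 mutant UMIs (383 and 408 CPM, log2 ratio 0.09, interval 0.00 to 0.18). Venous cells had 1899 and 1238 UMIs (698 and 721 CPM), against 194 and 232 CPM in arterial and 161 and 196 CPM in capillary cells. Venous cells thus had the most Il6st and the least Osmr of the endothelial cells in both libraries. Mesenchymal cells had 304 and 262 CPM, muscle cells 297 and 223 CPM, and Schwann cells 187 and 189 CPM. Macrophages had 29.7 and 38.7 CPM and neutrophils 11.6 and 7.95 CPM, the lowest of the lineages in both libraries. No Il6st pair passed 2-fold.

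**Figure D5:**
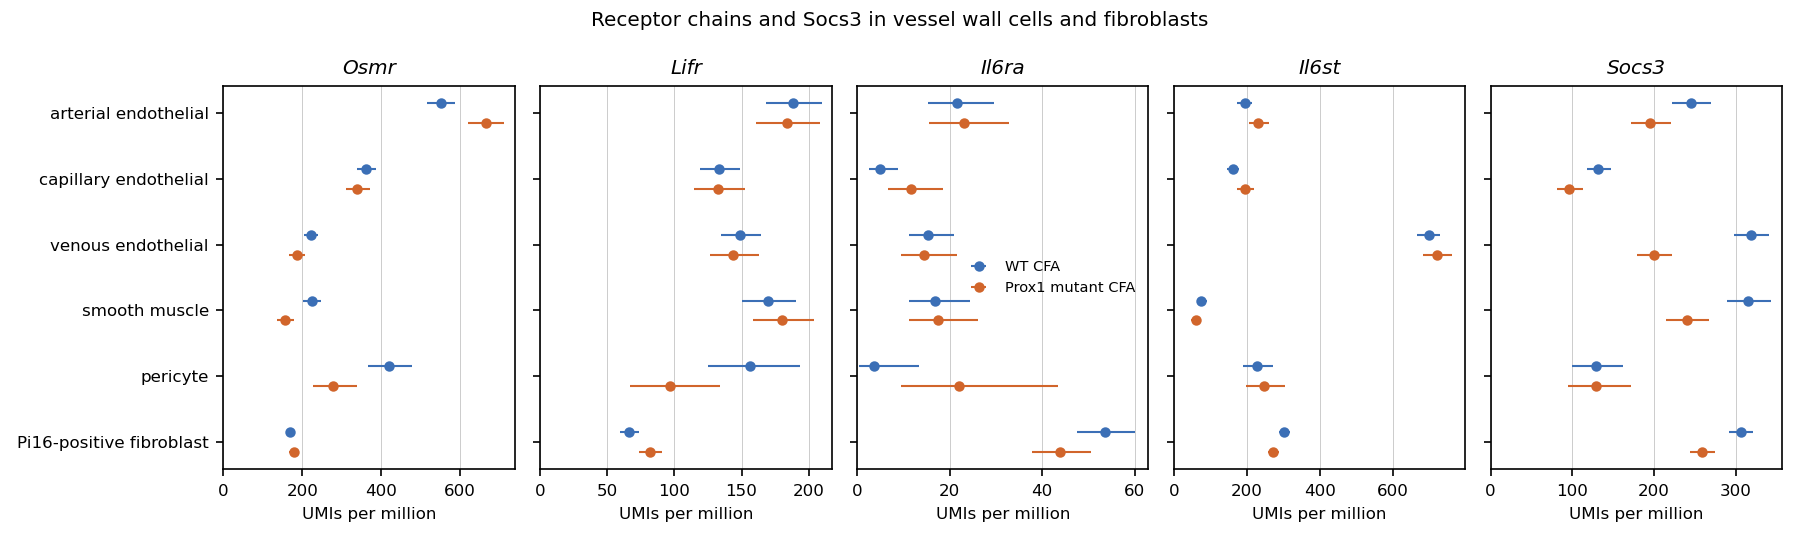
Levels of the receptor chains and Socs3 in CPM in arterial, capillary and venous endothelial cells, smooth muscle cells, pericytes and Pi16-positive fibroblasts, for the WT and the Prox1 mutant library, with 95% counting intervals. Osmr was highest in arterial and lowest in venous cells among the endothelial cells, and Il6st was highest in venous cells, in both libraries.

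The share of single cells with a UMI of both chains of a receptor pair was counted after thinning each cell to 2000 UMIs. Osmr and Il6st were both found in 12.9% of 891 WT endothelial cells (interval 10.8% to 15.3%) and 17.0% of 499 mutant endothelial cells (13.8% to 20.6%). The product of the single-chain shares, the value if both were detected independently, was 12.9% and 16.0%. In mesenchymal cells the same pair was in 12.4% and 8.60%, and in smooth muscle and pericytes in 7.21% and 4.59%. The products were 10.4% and 7.13% for the former and 6.55% and 3.47% for the latter. By subtype the pair was in 12.1% and 10.6% of Pi16-positive fibroblasts, 16.7% and 15.2% of pericytes and 3.92% and 2.15% of smooth muscle cells. Lifr and Il6st were both found in 7.97% and 7.62% of endothelial cells and in 5.90% and 5.38% of mesenchymal cells. Il6ra and Il6st were both found in 5.62% and 1.79% of mesenchymal cells but in 0.673% and 1.002% of endothelial cells, and the product for mesenchymal cells was 5.64% and 2.22%. Of macrophages 1.09% and 1.19% held both Il6ra and Il6st at this depth, and 13.3% and 16.9% held Il6ra. The product for macrophages was 0.796% and 1.33%, close to the shares found. Erythroid cells, taken as a background, held Osmr and Il6st together in 0 of 303 WT cells, which allows up to 0.990%, and in 0.387% of 1033 mutant cells.

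Socs3 encodes the inhibitor that STAT3 induces. It was highest in muscle satellite cells, 481 WT and 147 mutant UMIs (751 and 587 CPM, log2 ratio -0.36), and in Schwann cells, 998 and 394 UMIs (536 and 509 CPM, log2 ratio -0.07). In the mutant library the intervals of these 2 overlapped. The one call on many droplets was in myeloid progenitors, with 780 and 253 UMIs (318 and 104 CPM, log2 ratio -1.61, interval -1.82 to -1.41). There 98 of 139 WT and 64 of 163 mutant droplets held Socs3, and at 2000 UMIs per cell the shares were 39.8% and 15.5%, 70.5% and 39.3% without thinning, against 2.31% and 8.81% of erythroid cells at 2000 UMIs. The level of Il6 in the same cells was 196 and 127 CPM, and the 8 erythroid markers summed to 196 and 12214 CPM. The 7 markers of the progenitors themselves summed to 8095 and 4151 CPM and the 7 markers of mast cells and basophils to 2.86 and 429 CPM. What part these had in the Socs3 values was not tested.

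Socs3 was lower in the mutant library, without passing 2-fold, in venous endothelial cells (319 and 200 CPM, log2 ratio -0.68), over all endothelial cells (235 and 165 CPM, log2 ratio -0.52), in mature neutrophils (232 and 125 CPM, log2 ratio -0.89) and in mesenchymal cells (306 and 252 CPM, log2 ratio -0.28). It was higher in inflammatory macrophages (140 and 195 CPM, log2 ratio 0.47, interval 0.37 to 0.58) and close to equal in resident-type macrophages (293 and 279 CPM). Erythroid cells had 15.9 and 27.7 CPM. The call in dendritic cells came from 35 and 20 UMIs, of which 16 of the 20 sat in 1 mutant droplet.

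Beyond the members, 44 other genes of the pathway were listed, giving 442 gene and lineage pairs with at least 20 UMIs. Of these 41 (9.28%) were higher and 41 (9.28%) lower in the mutant library, against the 8.00% and 5.06% of all pairs. The 7 JAK kinases and STAT factors were the steadiest, with 3 higher (3.19%) and 1 lower (1.06%) of 94 pairs. The 6 other feedback inhibitors had 4 higher (5.97%) and 11 lower (16.4%) of 67 pairs. Among them Cish, which is induced by STAT5, was 16.9 and 6.29 CPM in macrophages (log2 ratio -1.42), Socs2 was 18.8 and 7.50 CPM in macrophages (-1.33), 170 and 75.8 CPM in muscle cells (-1.17) and 204 and 35.9 CPM in chondrocytes (-2.51), and Socs1 was 47.8 and 21.3 CPM in neutrophils (-1.17). Of the 8 other ligands 2 of 25 pairs (8%) were higher and 1 (4%) lower. Of the 3 other receptor chains 1 of 17 pairs (5.88%) was higher and 3 (17.6%) lower. Among the lower was Cntfr, the receptor for ciliary neurotrophic factor, at 15.5 and 7.75 CPM in mesenchymal cells. Of the 2 receptor-shedding proteases 2 of 28 pairs (7.14%) were higher and none lower.

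The 18 genes known to respond to STAT3 had 29 higher (13.7%) and 25 lower (11.8%) of 211 pairs, against 8.00% and 5.06% of all pairs. The list was chosen with earlier results of these data known. Its genes did not move as one. Cebpd, a transcription factor of the acute phase, was lower in endothelial cells (237 and 96.6 CPM, log2 ratio -1.29), mesenchymal cells (760 and 303 CPM, -1.33) and Schwann cells (253 and 77.5 CPM, -1.71). Lrg1, a secreted glycoprotein of vessels, was lower in endothelial cells (261 and 129 CPM, log2 ratio -1.02), as was the protease inhibitor Timp1 (14.2 and 6.91 CPM, -1.03). Saa3, an acute-phase protein, was higher in endothelial cells (15.3 and 34.8 CPM, log2 ratio 1.18) and in smooth muscle and pericytes (12.2 and 118 CPM, 3.27). It was lower in myeloid progenitors (228 and 69.2 CPM, -1.72) and in T and NK cells (312 and 72.5 CPM, -2.11), where the 10 macrophage markers summed to 1771 and 1127 CPM, 6 of them lower by 2-fold, and the 7 dendritic markers to 201 and 25.1 CPM. In macrophages the monocyte attractant Ccl2 (34.9 and 117 CPM, log2 ratio 1.75) and the iron-binding lipocalin Lcn2 (18.3 and 66.2 CPM, 1.85) were higher, the latter beside 8 neutrophil markers at 848 and 2469 CPM. Lcn2 was also higher in mesenchymal cells (86.5 and 191 CPM, log2 ratio 1.14), where the neutrophil markers summed to 150 and 1026 CPM. In endothelial cells 1 of the 17 genes tested was higher and 4 were lower, with a median log2 ratio of -0.29 beside 0.04 over all 12468 genes tested there, of which 449 were higher and 431 (3.46%) lower. In erythroid cells, the B lineage and chondrocytes 6 of 17, 5 of 13 and 6 of 14 were higher, where 13.9%, 9.62% and 21.9% of all genes tested were. In the B lineage and chondrocytes red-cell markers were also higher in the mutant library, as given above, and their part was not tested. In T and NK cells and in muscle cells all calls in this list were lower, where 6.60% and 6.88% of all genes tested were lower.

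Genes with the most similar profile over the 28 lineage profiles were ranked among 13696 genes. The most similar to Osm were Igsf6 (Pearson r 0.97), Lst1 (0.96) and Ccr1 (0.96), and to Osmr they were Fzd4 (0.93), Galnt18 (0.92) and Hspb1 (0.91). Il6st was nearest to Qser1 (0.91), Wwc2 (0.90) and Smad1 (0.88), and Socs3 to the immediate early gene Fos, Tmbim1 (0.87) and Deptor (0.86). Lif was nearest to the myeloid genes Aif1 (0.87) and C3ar1 (0.86) and to Zfp991 (0.86). Il6ra was nearest to Arpc1b (0.87), Edem2 (0.84) and AI413582 (0.81), and Lifr to Cdc14b (0.83), Ctif (0.83) and Rilpl1 (0.82). Il6 had the weakest neighbours, Nostrin (0.81), Adora2b (0.72) and Zfp385a (0.66), so no gene followed it across lineages as closely as Igsf6 followed Osm.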

How the data were processed

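The deposited tables hold raw UMI counts per gene and barcode, which the authors made with Cell Ranger 7.0.1 on mm10 per the labels. The gene rule, the lists and the members were chosen with earlier results of these data known. Following the study's methods, cells needed 500 or more genes and less than 10% mitochondrial UMIs. The libraries were normalised with SCTransform, joined through anchors on 3000 features, and split into clusters from 200 principal components with the resolution set to 1.5 (Seurat 5.3.0, sctransform 0.4.2, R 4.3.3). A cluster was named where at least 3 markers of a type were detected, in at least 10% of cells and over 2-fold above the other cells, and its 10 leading genes did not go against the name. The labels name the 3' v2 kit of 10x Genomics, whereas the study's methods name a later version of the 3' kit. Which of them was used is not settled here.

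UMI counts were summed per library and lineage and divided by the cells' total UMIs (CPM). CPM carry exact Poisson intervals, shares exact Clopper-Pearson intervals and ratios an exact conditional interval (SciPy 1.17.1). A count of 0 allows up to 3 counts. The rule for a call was tested on simulated counts summed over all kept cells, with no spread between droplets. Calls within a lineage were not tested in this way. Shares were also taken after thinning each cell to 2000 UMIs, which left out 509 WT and 1269 mutant cells. The automatic threshold of Scrublet in scanpy 1.11.5 called 0 of 5469 and 7603 scored barcodes as doublets, so none were removed. This does not show that doublets were absent. Removing the 239 and 462 highest scores, numbers set by an assumed doublet rate, was an alternative. Named were all 8 members in every lineage, pathway genes with at least 100 UMIs and a 2-fold ratio, at most 3 per direction and lineage, and the 3 genes most similar to each member by log2(CPM + 5). One gene that met this rule is not reported here.

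Alternatives were other cell filters, doublet removal, merging without integration, log-normalisation, 30 principal components, a resolution of 0.5, ratios centred on the median gene, other UMI minimums, shallow clusters left out and the top droplet left out. The clusters dominated by 1 library and the use of subtypes were alternatives chosen after seeing the data.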

Additional observations from a re-analysis of the deposited data

Results flagged for a closer look

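Il6 differed in opposite directions between the libraries in the 2 macrophage subtypes. The log2 ratio, mutant over WT, was 1.06 in inflammatory macrophages and -2.03 in resident-type macrophages. The former was 0.57 without clusters dominated by 1 library, and the latter -0.34 with log-normalisation. Of the 96 WT UMIs of inflammatory macrophages 94 were in cluster 4, which was mostly named osteoclast or left unnamed under other clusterings. In both subtypes few droplets held much of the Il6. In inflammatory cluster 14, 1 droplet held 21 of 64 mutant UMIs, and in resident-type macrophages 1 droplet held 17 of 66 WT UMIs. The difference between the subtypes was not tested, since there was 1 library per genotype.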

How the results depend on the processing

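Lif was the only member called over all cells under all 9 alternatives, though another UMI minimum could not alter that count. The leading lineage was the same in both libraries for 5 to 8 of the 8 members, but it could differ between alternatives. Il6st, Osmr and Socs3 kept theirs wherever lineages were used. Macrophages led Il6ra in both libraries with doublet scores removed or with 30 principal components. Mesenchymal cells led Il6 in the mutant library with doublet scores removed. Dendritic cells led Lifr at a resolution of 0.5, and the WT leader of Osm also varied. The 15 called pairs of a member and a lineage became 27 with the highest doublet scores removed (21 higher and 6 lower), 25 with no minimum of UMIs and 7 with a minimum of 50 UMIs. The 82 called pathway pairs became 125 with no minimum and 49 when subtypes replaced lineages. Under these alternatives the pairs tested also changed, and the share over all genes was taken only for the main setting. The changed counts are therefore no result about the members or the pathway genes. Lif in macrophages reversed to -0.21 with the filter of 200 genes and -0.28 with log-normalisation, where its cells were named osteoclast. Lifr in the osteoblast lineage reversed to -0.21 at a resolution of 0.5, where the cells of cluster 36 were unnamed. In erythroid cells Lifr reversed to -0.051 with the filter of 200 genes and Osm to -0.30 without clusters dominated by 1 library. Osmr in neutrophils reversed to 3.55 with the filter of 1000 genes, 4.19 with doublet scores removed, 2.53 when merged, 1.74 with log-normalisation, 1.75 with 30 principal components and 0.48 at a resolution of 0.5, and the cause was not tested. Of the 253 values of called pairs under the alternatives, 209 stayed within the counting interval, 33 moved out of it and 11 reversed. The 209 include values with another UMI minimum, which selects pairs but leaves each ratio as it is, so those stayed by design. No paired analysis was possible because each group has 1 library. Outside their main lineages most members had few UMIs, which limits what these depths can show.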
